A study of Mus musculus with 9 samples.

Results

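A set of 10 genes that mark epithelial and mesenchymal state was followed in 4T1 primary tumors treated with BI 853520 (BI), an inhibitor of focal adhesion kinase (FAK). These are Snai1, Snai2, Twist1, Twist2, Zeb1 and Zeb2, which encode the transcription factors of epithelial-mesenchymal transition (EMT), the cadherin genes Cdh1, Cdh2 and Cdh11, and Vim, which encodes vimentin. They were chosen by name and matched by Entrez identifier. All 10 were found among the 18755 genes counted and all 10 passed the filter on low counts, as did 13966 genes in all. The tumors grew from 1000000 cells of 4T1, a mouse mammary carcinoma line, injected into a mammary fat pad of female BALB/c mice aged 6 to 10 weeks. From day 15 after injection, mice received daily for 5 days either the vehicle alone, 0.5% Natrosol (hydroxyethylcellulose; 3 tumors, numbered 1 to 3), or BI at 50 mg/kg by oral gavage in the same vehicle (6 tumors, numbered 4 to 9). RNA was sequenced from tumor tissue that still held the host cells, and the study kept only tumors with sufficient RNA quality. In such bulk tissue, fewer cells of a type and less RNA per cell cannot be told apart.

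In EMT, epithelial cells give up their junctions and polarity and take on migratory, fibroblast-like traits. The Snail, Twist and ZEB factors bind E-box sequences and act largely as repressors of junction genes such as Cdh1, the gene for E-cadherin. In a classical cadherin switch, cells lose E-cadherin and gain N-cadherin (Cdh2), and vimentin, an intermediate filament protein, replaces part of the keratin network. The same genes are also active in normal stroma: vimentin in fibroblasts, leukocytes and endothelium, Zeb2 in myeloid and lymphoid cells, and Snai2, Twist2 and Cdh11 in mesenchymal cells.

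The sequences upstream of the start of Vim, Twist1, Zeb2 and Snai1 are shown because the first 3 belong to the members that differed between the groups and the last holds an E-box of the form CACCTG, the sequence to which Snail and ZEB proteins bind. Each is the 250 bases before the annotated start, 5′ to 3′ on the strand of the gene, from RefSeq on GRCm38.p6. Windows were taken for 5 of the 10 members, which does not show that the others lack an annotated start. They lie at chr2:13574061-13574310 (Vim, plus strand), chr12:33957421-33957670 (Twist1, plus strand), chr2:45117443-45117692 (Zeb2, minus strand, the most upstream of 4 starts) and chr2:167537945-167538194 (Snai1, plus strand). Capitals mark TATAAA in Vim and Twist1 and CACCTG in Snai1, searched on both strands.
Vim: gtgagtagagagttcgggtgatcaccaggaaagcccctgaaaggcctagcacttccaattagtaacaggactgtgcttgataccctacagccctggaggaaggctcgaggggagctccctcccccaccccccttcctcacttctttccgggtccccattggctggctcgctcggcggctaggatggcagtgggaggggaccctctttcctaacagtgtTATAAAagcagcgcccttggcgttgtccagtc
Twist1: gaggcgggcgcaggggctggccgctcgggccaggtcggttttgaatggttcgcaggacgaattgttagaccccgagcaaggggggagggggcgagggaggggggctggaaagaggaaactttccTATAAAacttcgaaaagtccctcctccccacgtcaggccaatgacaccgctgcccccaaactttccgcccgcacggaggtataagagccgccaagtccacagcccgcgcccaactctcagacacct
Zeb2: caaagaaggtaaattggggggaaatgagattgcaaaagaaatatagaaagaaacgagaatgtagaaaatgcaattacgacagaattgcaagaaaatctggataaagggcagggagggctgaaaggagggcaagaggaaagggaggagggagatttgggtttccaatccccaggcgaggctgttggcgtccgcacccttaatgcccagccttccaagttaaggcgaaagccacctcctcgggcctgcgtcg
Snai1: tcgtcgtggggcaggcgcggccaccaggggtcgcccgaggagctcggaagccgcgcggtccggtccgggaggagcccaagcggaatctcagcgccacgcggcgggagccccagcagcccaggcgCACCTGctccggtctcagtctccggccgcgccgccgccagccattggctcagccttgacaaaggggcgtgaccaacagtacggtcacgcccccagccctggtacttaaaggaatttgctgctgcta

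The TATAAA letters began 32 bases before the start in Vim and 126 bases before it in Twist1, and the CACCTG letters of Snai1 began 126 bases before the start. Zeb2 held neither motif in this window, and the same was true of Twist2, the fifth member with a window. Over all 32851 windows of this length, 17.2% held CACCTG and 12.4% held TATAAA.

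Of the 10 genes, Vim and Twist1 fell with BI, Zeb2 rose, and the other 7 did not pass the test (edgeR quasi-likelihood test with Benjamini-Hochberg adjustment across the whole table, threshold 0.05). Of all genes tested, 14.6% were called higher and 14.1% lower, so the share of called members was near the background in each direction. Under the limits that the study set, an unadjusted p up to 0.05 together with a change of 1.5-fold or more, 0 members passed, against 13.2% of all genes. The 2 groups did not overlap for 3 members (Zeb2 higher, Vim and Twist1 lower), compared with 14.1% of all genes not overlapping and higher and 14.0% not overlapping and lower.

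**Figure D1:**
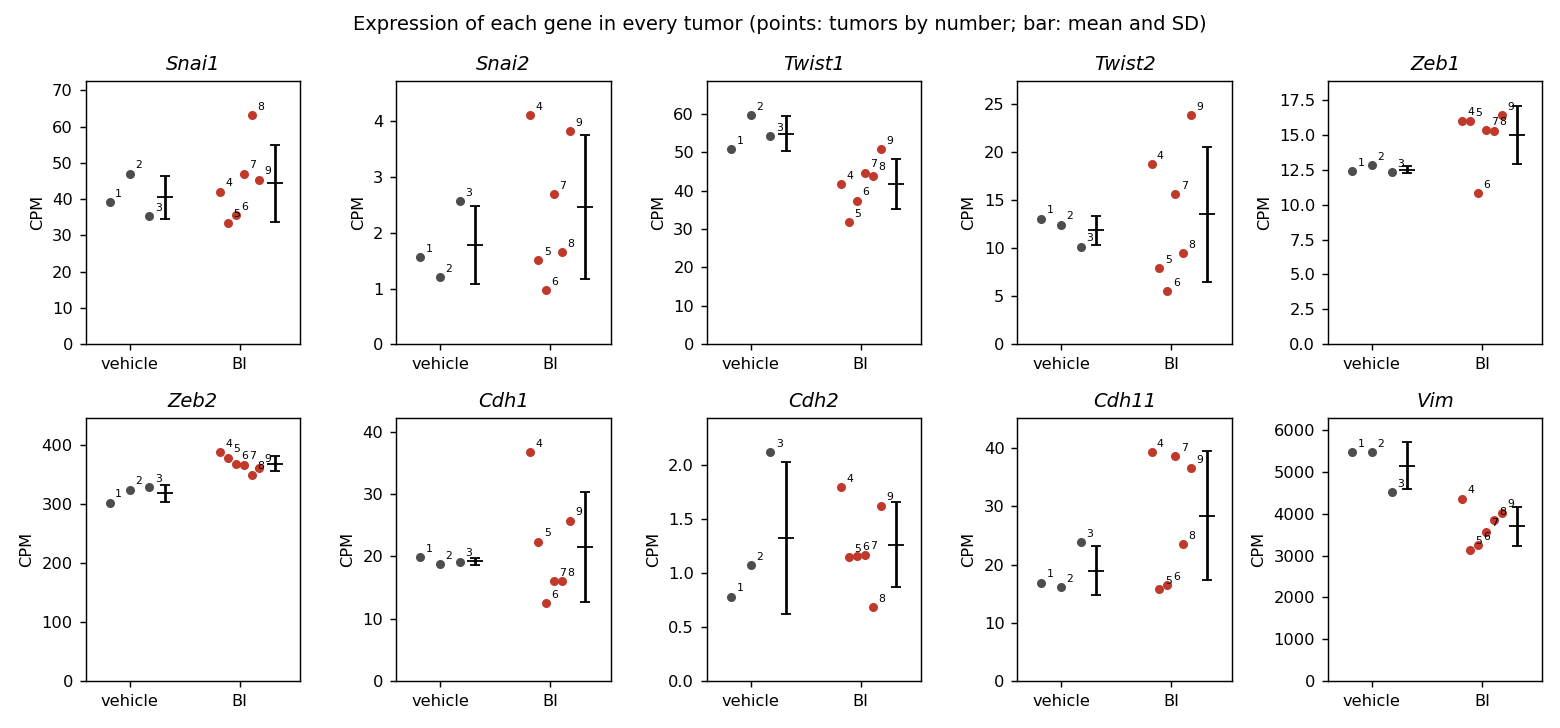
Expression of the 10 members in each tumor, in counts scaled to a TMM-normalized library total of 1000000 (CPM) with 1 panel per gene; numbered points are tumors, and bars are the mean and SD of 3 vehicle and 6 BI tumors. The groups are apart for Vim and Zeb2 and only just apart for Twist1, and the BI tumors spread widely for Snai2, Twist2, Cdh1 and Cdh11.

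Total counts per tumor ranged from 16931607 to 33850245, being 21727879 to 33850245 with vehicle and 16931607 to 22349873 with BI, so that 1 count corresponded to 0.0295 to 0.0580 CPM. The carcinoma markers were present in every tumor, with sums of 8 genes of 945 to 1172 CPM with vehicle and 743 to 946 CPM with BI, and Krt8 and Krt18, which make up most of the sum, were called lower with BI. The other 6 were not called, and 5 of the 8, Epcam among them (log2 fold change 1.06, adjusted p = 0.0987, edgeR), had values above 0, with a list median of 0.13. Leukocyte markers differed as well: 8 of 9 macrophage markers were higher and 1 lower, with sums of 1765 to 2329 CPM with vehicle against 3333 to 4039 CPM with BI.

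Among the Snail family, neither member passed the test. Snai1, which represses Cdh1 directly, occupies chromosome 2, bases 167363695 to 167368314, on the plus strand of mm9, the build of all gene positions that follow. Snai1 was at 39.1, 47.1 and 35.4 CPM in the vehicle tumors. In the BI tumors its lowest, median and highest levels were 33.5, 43.7 and 63.1 CPM. The BI tumors lay on both sides of the vehicle tumors, with 1 above and 1 below all of them. The log2 fold change was 0.13 (SE 0.171, 95% interval -0.24 to 0.51), with an adjusted p of 0.595 in edgeR's test. The interval held changes in both directions.

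Snai2, which encodes Slug, maps to chromosome 16, bases 14705945 to 14709488 (plus strand) and was sparsely counted, with 20 to 87 counts per tumor. Its levels were 1.56, 1.21 and 2.56 CPM with vehicle, and 0.966, 2.18 and 4.11 CPM as the lowest, median and highest with BI. The groups overlapped, and the BI tumors ran from below to above the vehicle range. The log2 fold change of 0.45 had an SE of 0.430 and an interval of -0.49 to 1.38 (adjusted p = 0.466, edgeR). At this depth the interval reached well to both sides of 0.

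Twist1 fell by 24.0%. Twist1 encodes a basic helix-loop-helix (bHLH) factor of mesoderm and neural crest that is linked to invasion in mammary tumors, and it maps to chromosome 12, bases 34642536 to 34644682 (plus strand). The vehicle tumors were at 50.8, 59.6 and 54.2 CPM (mean 54.9 ± 4.46, SD, n = 3). The BI tumors had a lowest level of 31.8, a median of 42.8 and a highest level of 50.8 CPM (mean 41.7 ± 6.52, SD, n = 6). The highest BI tumor, tumor 9, and the lowest vehicle tumor, tumor 1, differed by 0.00495 CPM, and with RLE, library-size or upper-quartile scaling the groups overlapped. In edgeR's fit the log2 fold change was -0.40 (SE 0.118, 95% interval -0.65 to -0.14), with an adjusted p of 0.0257. The call was lost without vehicle tumor 2 (log2 fold change -0.33, adjusted p = 0.107, edgeR) and without vehicle tumor 3 (-0.41, adjusted p = 0.0721, edgeR), while the direction held.

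Twist2 did not pass the test and spread far more among the BI tumors than its paralog. It encodes a closely related bHLH factor of dermal and other mesenchymal cells and maps to chromosome 1, bases 93698038 to 93744605 (plus strand). Levels were 13.0, 12.4 and 10.1 CPM with vehicle, and from 5.51 through a median of 12.5 to 23.8 CPM with BI. Of the 6 BI tumors, 3 were above and 3 below all vehicle tumors. Its log2 fold change was 0.19 (SE 0.368, interval -0.61 to 0.99, adjusted p = 0.737, edgeR), and the difference between the responses of Twist1 and Twist2 was not tested.

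Zeb2 rose by 15.8%, the only EMT transcription factor among the 6 that was called higher. Zeb2, a zinc finger and homeodomain repressor, maps to chromosome 2, bases 44839154 to 44972915 (minus strand). It was at 302, 324 and 329 CPM with vehicle (mean 318 ± 14.3, SD, n = 3), and its lowest, median and highest levels with BI were 350, 367 and 388 CPM (mean 369 ± 13.5, SD, n = 6). Every BI tumor was above every vehicle tumor, under all 4 scalings. The log2 fold change was 0.21 (SE 0.0567, 95% interval 0.09 to 0.34, adjusted p = 0.0161, edgeR). Zeb2 varied little within the BI group, with an SD of log2 CPM at the 4.22 percentile of all genes tested. Without vehicle tumor 1 the log2 fold change was 0.17 and the adjusted p 0.0893 in edgeR.

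Markers of leukocytes that also use Zeb2 differed between the groups. Besides the macrophage markers given above, 6 of 7 NK cell markers were called higher, with sums of 36.0 to 49.6 CPM with vehicle and 92.2 to 120 CPM with BI, and 7 of 8 T cell markers were higher, with sums of 71.5 to 81.1 and 129 to 190 CPM. The markers of neutrophils went the other way, with 4 of 6 lower. Over the 9 tumors, which share these libraries, and after subtraction of the group means, the log2 CPM of Zeb2 had a Pearson's r of 0.18 with the macrophage sum, -0.32 with the T cell sum and -0.32 with the NK cell sum, given as a description. With the 14 cell type marker sums this r ran from -0.61 (B cell) to 0.77 (skeletal muscle), being 0.53 with dendritic cells and 0.56 with endothelium. The part of any cell type in the difference of Zeb2 was not tested. Exons of Zeb2 also overlap those of Gm13476, a long non-coding RNA on the other strand, and a microRNA gene on its own strand, and whether strand was used in the counting is not stated.

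Zeb1, the paralog of Zeb2 and a repressor of the same kind, did not pass the test with all tumors included. It was at 12.4, 12.8 and 12.3 CPM with vehicle, and its lowest, median and highest levels with BI were 10.8, 15.7 and 16.4 CPM. Of the BI tumors, 5 lay above all vehicle tumors and 1, tumor 6, lay below all of them. Over all 9 tumors the log2 fold change was 0.26 (SE 0.122, interval -0.01 to 0.52, adjusted p = 0.134, edgeR). Without tumor 6 it was 0.34, with an adjusted p of 0.00971 in edgeR, so that this tumor decided the call. Per length, Zeb2 exceeded Zeb1 by 15.5 to 17.0 times in the vehicle tumors and by 14.0 to 21.6 times in the BI tumors, the highest ratio being that of tumor 6.

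**Figure D2:**
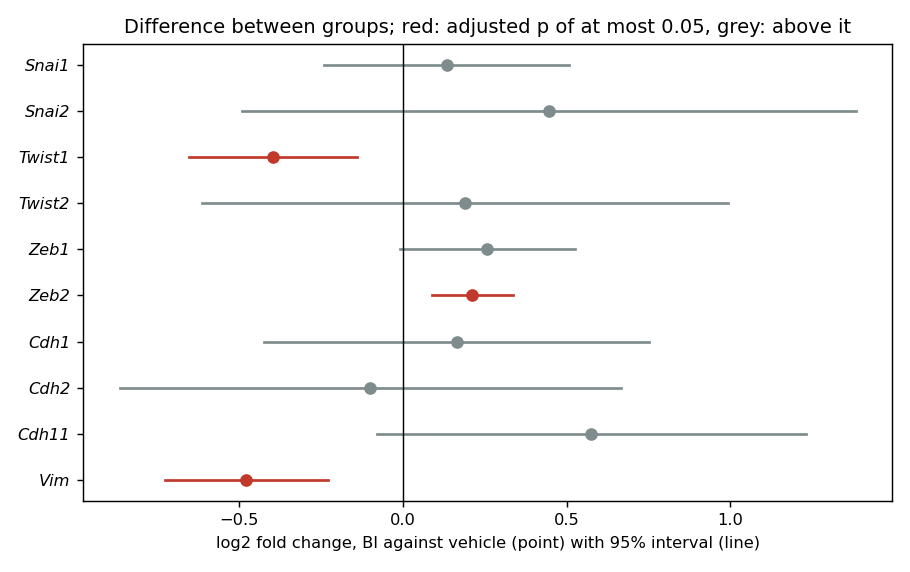
Log2 fold change of the 10 members, BI minus vehicle, from edgeR's quasi-likelihood fit; points are estimates, horizontal bars are 95% intervals, and red marks genes that passed the adjusted threshold of 0.05. The intervals of Vim and Twist1 lie below 0, that of Zeb2 lies above 0, and those of the other 7 members include 0.

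The cadherins did not pass the test. Cdh1, the gene of the epithelial junction protein E-cadherin and the best-known target of these repressors, maps to chromosome 8, bases 109127251 to 109194146 (plus strand). It stood at 19.8, 18.7 and 19.1 CPM with vehicle, a narrow range, and ran from 12.5 through a median of 19.2 to 36.7 CPM with BI. The BI tumors lay 3 above and 3 below all vehicle tumors, with a highest level 2.95 times the lowest. Between the groups the log2 fold change was 0.16 (SE 0.270, interval -0.42 to 0.75, adjusted p = 0.686, edgeR). Without BI tumor 4, the highest, it was -0.06, so these data gave Cdh1 no stable direction.

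Cdh2, which encodes N-cadherin, the partner gained in the classical switch, was the least abundant member per length in both groups. Its raw counts were 12 to 72 per tumor, with levels of 0.779, 1.07 and 2.12 CPM with vehicle and 0.685, 1.16 and 1.80 CPM as the lowest, median and highest with BI. The groups overlapped throughout. The log2 fold change of -0.10 had an interval of -0.87 to 0.67 (SE 0.351, adjusted p = 0.856, edgeR), and it was 0.45 without vehicle tumor 3 and 0.03 without BI tumor 8. Cdh1 exceeded Cdh2 per length by 9.48 to 26.8 times in the vehicle tumors and by 11.3 to 24.7 times in the BI tumors, and these ranges overlap.

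Cdh11, which encodes OB-cadherin, a cadherin of osteoblasts and fibroblasts, did not pass the test and had one of the widest spreads among the BI tumors. It maps to chromosome 8, bases 105156895 to 105309011 (minus strand). Its levels were 16.9, 16.1 and 23.9 CPM with vehicle, and 15.8, 30.0 and 39.4 CPM as the lowest, median and highest with BI. Of the BI tumors, 3 were above and 1 was below all vehicle tumors. Its log2 fold change was 0.57 (SE 0.301, interval -0.08 to 1.23), with an adjusted p of 0.172 in edgeR.

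Vim fell by 28.3% with BI and was by far the most abundant member. It maps to chromosome 2, bases 13495554 to 13504453 (plus strand). The vehicle tumors were at 5477, 5483 and 4522 CPM (mean 5161 ± 553, SD, n = 3). The BI tumors had a lowest level of 3139, a median of 3711 and a highest level of 4369 CPM (mean 3702 ± 471, SD, n = 6). Every BI tumor was below every vehicle tumor, and this held under all 4 scalings. The gap between the nearest tumors was 153 CPM with TMM and 85.1 CPM with upper-quartile scaling, the smallest of the 4. The log2 fold change was -0.48 (SE 0.114, 95% interval -0.73 to -0.23, adjusted p = 0.00903, edgeR), and the call was kept when any of the 9 tumors was left out, with adjusted p up to 0.0467 in edgeR.

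Vim in these tumors can come from host cells and from the carcinoma cells, since the paper describes 4T1 as partly through an EMT. The carcinoma markers are given above. Markers of host cell types that contain vimentin are given beside the shares of all genes, 14.6% called higher and 14.1% lower. Besides the macrophage markers given above, 2 of 10 fibroblast markers were called higher and 0 lower, a share near that of all genes. The fibroblast sums overlapped, at 2000 to 3436 CPM with vehicle and 2647 to 5880 CPM with BI. Of 8 endothelial markers 3 were higher and 0 lower, with overlapping sums of 183 to 209 CPM with vehicle and 208 to 296 CPM with BI. The neutrophil markers moved the other way, with 4 of 6 lower and sums of 523 to 753 CPM with vehicle against 221 to 372 CPM with BI. The part of any cell type in the fall of Vim was not tested.

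Among the BI tumors, 9 of the 10 members varied more than the median gene, all but Zeb2, and Twist2, Snai2, Cdh11 and Cdh1 varied most, at the 98, 97.9, 95.3 and 94 percentile of all genes tested. Their SD of log2 CPM over the 6 BI tumors was 0.802, 0.788, 0.613 and 0.562, against a median of 0.143 over all genes tested. The 3 BI tumors with the highest Snai2, Twist2 and Cdh11 were the same for the 3 genes, tumors 4, 7 and 9. These were also the 3 BI tumors with the highest fibroblast sums, 5232, 5188 and 5880 CPM, whereas the other 3 had 3470, 2647 and 4079 CPM. Among the vehicle tumors the sums were 2000, 2105 and 3436 CPM, and tumor 3, the highest, also had the highest Snai2 and Cdh11 but the lowest Twist2. The 2 fibroblast markers called higher were Col1a2 and Thy1, and the most abundant of the 10 was Col1a1, the gene of a collagen I chain. The part of fibroblasts in the values of these members was not tested. Cdh1 followed another order, being highest in tumors 4, 9 and 5, which also had the highest mast cell sums of the BI group (356, 268 and 176 CPM, against 46.1 to 107 CPM in the other 3). The same tumors had the highest skeletal muscle sums of the group (20.5, 14.8 and 18.8 CPM, against 6.62 to 8.95 CPM). After subtraction of the group means, Pearson's r of Cdh1 with the 14 cell type marker sums ran from -0.60 (NK cell) to 0.82 (mast cell). It was 0.70 for skeletal muscle, 0.53 for fibroblasts and 0.51 for carcinoma cells. The mast cell and skeletal muscle lists were picked after the values were seen. The part of mast cells or of any other cell type in the values of Cdh1 was not tested either.

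**Figure D3:**
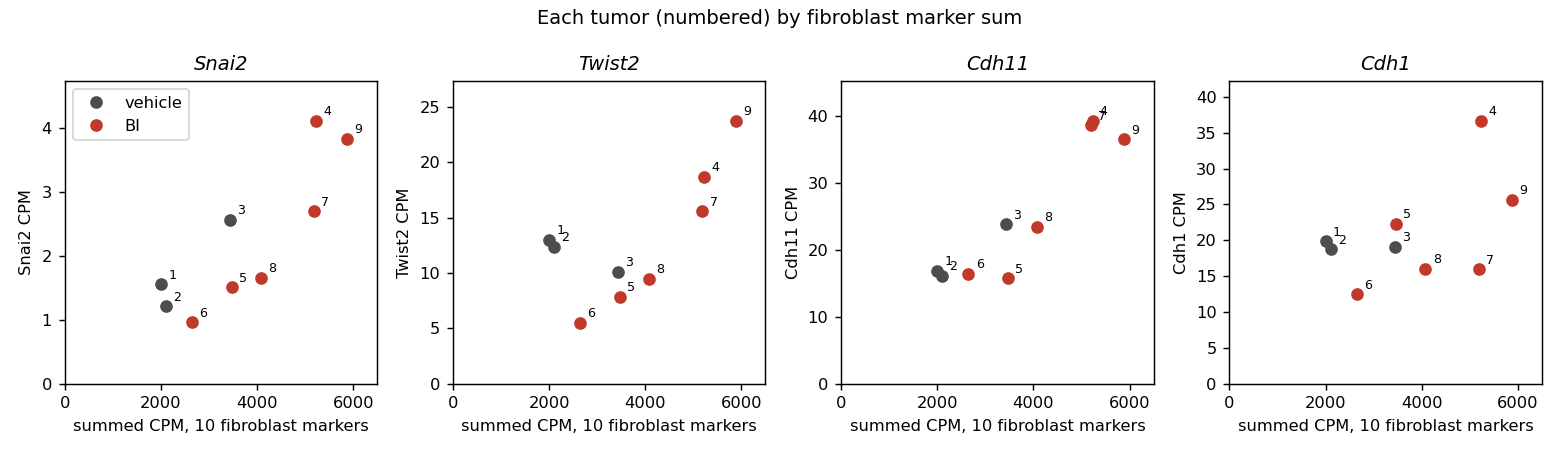
Levels of Snai2, Twist2, Cdh11 and Cdh1 in each tumor (CPM, vertical axis) against the summed CPM of 10 fibroblast markers (horizontal axis); each point is 1 of 9 tumors, labelled by its number. BI tumors 4, 7 and 9 have both the highest marker sums of their group, 5188 to 5880 CPM, and the highest Snai2, Twist2 and Cdh11.

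Per length, as CPM divided by gene length in kilobases (RPKM), the members spanned from Vim to Cdh2 in the same broad order in both groups. The vehicle means were 2814 RPKM for Vim, 34.9 for Zeb2, 33.7 for Twist1, 25.5 for Snai1 and 9.03 for Twist2. They were 4.50 RPKM for Cdh11, 4.36 for Cdh1, 2.16 for Zeb1, 0.883 for Snai2 and 0.285 for Cdh2. In this order, the tumors of Zeb2 and Twist1 overlapped, as did those of Cdh11 and Cdh1, while all other neighbours were apart in the 3 vehicle tumors. Vim was the gene of rank 4 of 13966 by mean RPKM with vehicle.

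With BI, Vim had a mean of 2018 RPKM and rank 10, and Snai1 (28.0 RPKM) stood above Twist1 (25.6 RPKM), which it had been below with vehicle. The tumors of Snai1 and Twist1 overlapped in the BI group, so the 2 genes were not separated there. Zeb2 was at 40.5 RPKM. Twist2, Cdh11, Cdh1, Zeb1 and Snai2, at 10.3, 6.73, 4.88, 2.58 and 1.22 RPKM, formed a chain in which each gene overlapped the one after it. The chain ended at Snai2, which stood apart from Cdh2, the lowest at 0.272 RPKM.

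**Figure D4:**
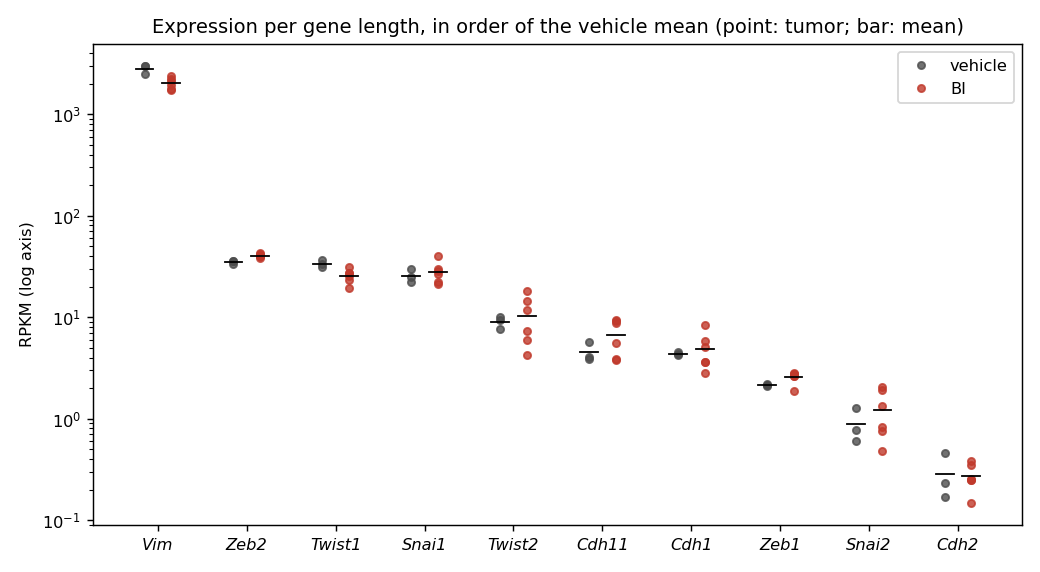
Levels of the 10 members per length (RPKM, log axis) in each of the 3 vehicle and 6 BI tumors (points, with bars at group means), ordered by the vehicle mean. Vim stands apart at 1712 to 2990 RPKM, Cdh2 is lowest, and the tumors of several neighbouring genes overlap.

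The ratio of Vim to Cdh1 per length was 570, 664 and 704 (lowest to highest) in the vehicle tumors. With BI it ran from 286 through a median of 457 to 628, and the groups overlapped. In this bulk tissue Vim also comes from host cells, so the ratio does not measure the epithelial or mesenchymal state of the carcinoma cells. Snai1 exceeded Snai2 by 17.5 to 49.4 times with vehicle and by 13.0 to 48.4 times with BI. Twist1 exceeded Twist2 by 3.14 to 4.31 times with vehicle and by 1.72 to 5.47 times with BI, again with overlap.

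The genes around these members were followed in 10 lists of 145 genes, of which 141 had counts and 123 were tested. Of the latter, 15 (12.2%) were called higher and 23 (18.7%) lower, beside 14.6% and 14.1% of all genes, and 14 of the 145 are also in a cell type marker list. Over all genes tested the median log2 fold change was -0.0037.

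The partners and regulators of the transcription factors are given list by list, to be read against those shares of all genes. Of 8 other EMT transcription factors tested, 0 were higher and 1 was lower, Sox4 (196 to 145 CPM, log2 fold change -0.43), and the list median was 0.15. Of 7 genes for bHLH partners of Twist and for Id proteins, which bind those partners and keep them from DNA, 1 was higher and 1 lower (median 0.03). These were Id2, which rose from 68.4 to 112 CPM (log2 fold change 0.71), and Id1, which fell from 60.2 to 43.8 CPM (-0.46). Of 11 co-repressor genes recruited by Snail and ZEB proteins, 2 were lower (median -0.05), namely Suz12, a subunit of the Polycomb repressive complex PRC2 (-0.35), and Hdac2, a histone deacetylase (-0.21). Of 8 genes that act on the stability of Snail and Twist proteins, Usp27x, a deubiquitinase (-0.57), and Lats2, a Hippo pathway kinase (-0.27), were lower, with a list median of -0.07. The call of Sox4 was lost without vehicle tumor 1, 2 or 3 or BI tumor 4, and that of Id1 without vehicle tumor 1 or 2. Co-repressors called lower numbered 1 without vehicle tumor 2 or 3 and 3 without BI tumor 4. Stability genes called lower numbered 1 without vehicle tumor 3 and 3 without vehicle tumor 1.

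Factors that keep epithelial identity were mixed: of 10 tested, 1 was higher and 2 lower, with a median of 0.25. Klf5 fell from 63.7 to 45.3 CPM (log2 fold change -0.49) and Elf3 from 3.73 to 2.31 CPM (-0.69). Elf5, a factor of luminal progenitors, was called higher (2.29), from 3 to 6 counts per vehicle tumor to 9 to 31 counts per BI tumor, so its fold change rests on few reads. All its vehicle tumors lay under the filter's minimum count of 10, so it entered the test through BI tumors alone. With a filter of at least 1 CPM in 3 tumors, 0 genes of this list were called higher. The genes called higher numbered 2 without vehicle tumor 1 or 2, and those called lower 1 without vehicle tumor 1 or 3 or BI tumor 4, 6, 7 or 9.

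Of 12 genes of adherens junctions other than the cadherins, 5 were lower and 1 higher, with a median of -0.16. Nectin2, an immunoglobulin-like adhesion molecule, fell from 57.2 to 40.2 CPM (log2 fold change -0.51), and Vcl, encoding the actin linker vinculin, fell from 442 to 318 CPM (-0.48). Nectin4 rose from 3.58 to 6.81 CPM (0.93). Of 17 other cadherins, 13 had counts and 5 were tested, of which 3 were higher and 1 lower (median 0.41). Cdh5, the cadherin of endothelium, was at 44.8 CPM with vehicle and 59.7 CPM with BI (0.41), beside the endothelial marker sums given above. Cdh15, the cadherin of muscle precursors, rose from 0.403 to 1.14 CPM (1.48), and Cdh17 fell from 2.36 to 1.16 CPM (-1.04). The groups overlapped for Cdh15, which had at most 37 counts in any tumor, so its fold change rests on few reads. Without vehicle tumor 1 or 3 these calls of higher cadherins numbered 0, without BI tumor 5 they numbered 1, and without vehicle tumor 3 the call of Cdh17 was lost as well. Of 9 intermediate filament relatives and linkers of Vim, 0 were called in either direction by edgeR's quasi-likelihood test, and the median was -0.12. At an unadjusted p under 0.05 there were 2 (Gfap higher and Prph lower, named after their values were seen), and edgeR's likelihood ratio and exact tests and limma-voom each called 1 lower.

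**Figure D5:**
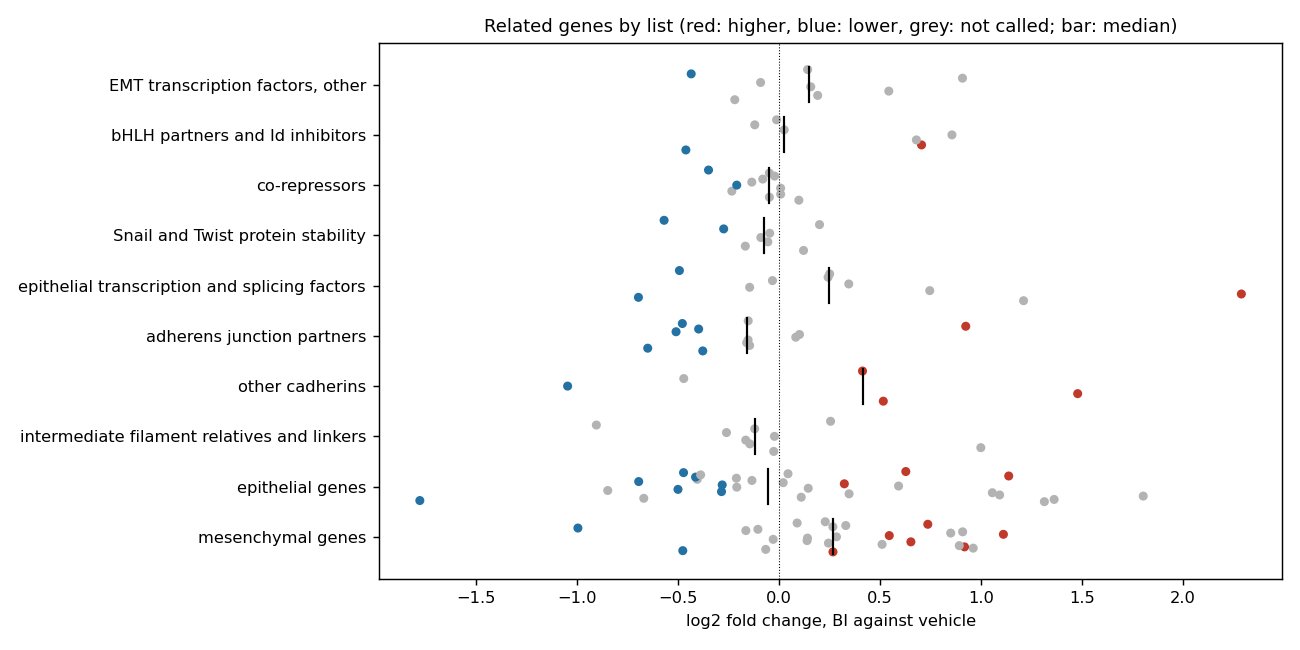
Log2 fold changes of the genes tested in the 10 related lists, 1 row per list; points are genes (red called higher, blue called lower, grey not called), and vertical bars are list medians. Of 123 genes, 15 were called higher and 23 lower, and the medians lie between -0.16 and 0.41.

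Of 28 epithelial genes tested, 3 were higher and 7 lower, with a median of -0.06. Cgn, encoding the tight junction protein cingulin, fell from 5.95 to 1.74 CPM (log2 fold change -1.78), and Spint2, a protease inhibitor of epithelia, fell from 176 to 132 CPM (-0.41). St14, encoding the epithelial protease matriptase, rose from 2.14 to 4.72 CPM (1.14), and Llgl2, a polarity gene, rose from 7.84 to 9.80 CPM (0.32). Of 25 mesenchymal genes, 6 were higher and 2 lower, with a median of 0.27. Mmp14, a membrane-bound matrix metalloprotease, rose from 503 to 736 CPM (0.55) and Fn1, encoding fibronectin, from 8664 to 13636 CPM (0.65). Axl, a receptor tyrosine kinase, fell from 1053 to 758 CPM (-0.47). The epithelial genes called lower numbered 4 without vehicle tumor 1, and those called higher 1 without vehicle tumor 3 or BI tumor 7 and 5 without BI tumor 4. The mesenchymal genes called higher numbered 2 without vehicle tumor 2, 3 without vehicle tumor 1, BI tumor 4 or BI tumor 7, and 12 without BI tumor 6.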

How the data were processed

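Poly(A) RNA of 9 tumors was made into stranded libraries and sequenced from both ends (50 cycles). The authors aligned reads to mm9 with STAR, kept unique hits, counted with QuasR the reads starting in any exon of a RefSeq gene, and deposited raw counts for 18755 genes with gene lengths. Use of strand and of both mates in counting is not given in the sources used here.

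RefSeq gave a symbol for 18700 of the 18755 Entrez identifiers, and mm9 positions from GENCODE. Library totals were 16931607 to 33850245 counts. BI was compared with vehicle by edgeR 4.0.16 (R 4.3.3), with TMM factors (0.984 to 1.02), filterByExpr (minimum count 10, minimum total 15), the quasi-likelihood F test without covariates and Benjamini-Hochberg adjustment over 13966 genes, with a threshold of 0.05. CPM are TMM-normalized, log2 CPM used a prior count of 2, and RPKM used the deposited lengths. Intervals of 95% used the t distribution. The test was also run on counts simulated from the means and dispersions of these data, which cannot show how well that model describes these tumors. The labels give a number to each tumor but no batch, so a batch that ran with the groups could not be told apart from the treatment. The p-values set the difference between the groups against the spread between these tumors only.

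The genes and lists were chosen with earlier results of these data known. The genes named were all 10 members, the 2 called genes with the smallest p per direction in each of the 10 related lists, the 3 genes most like each member, and the most abundant gene of each of 14 cell type marker lists (carcinoma cell, fibroblast, pericyte and smooth muscle, endothelium, macrophage, T cell, NK cell, B cell, dendritic cell, neutrophil, mast cell, adipocyte, skeletal muscle and Schwann cell). Other markers that were called are named as exceptions, after their values were seen. Some single genes under this rule are not reported here. Alternatives were RLE, library-size and upper-quartile scaling, no filter, at least 1 CPM in 3 tumors, DESeq2 1.42.0, limma-voom (limma 3.58.1), edgeR's exact and likelihood ratio tests, the study's limits (unadjusted p up to 0.05, change of 1.5-fold or more), a prior count of 0.5, and leaving out each tumor.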

Additional observations from a re-analysis of the deposited data

Results flagged for a closer look

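In 39 groups of 6 BI tumors (members, list sums and ratios), 4 held a tumor far from the others by Dixon's test, where chance alone flags about 1 in 20. Zeb1 was at 10.8 CPM in tumor 6, against 15.3 to 16.4 CPM in the other BI tumors. The ratio of Zeb2 to Zeb1 was accordingly 21.6 in the same tumor, against 14.0 to 15.4 in the others. The summed co-repressor genes were at 1705 CPM in tumor 9, against 1787 to 1820 CPM elsewhere in the BI group. The summed dendritic cell markers were at 175 CPM in tumor 5, against 113 to 127 CPM elsewhere in that group.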

How the results depend on the processing

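Under the other scalings, filters and tests run on all 9 tumors, 1 member was called higher and 2 lower as reported, except with an unadjusted p and the fold limit, where 0 were higher and 0 lower 8 rather than 23 related genes were lower, and 1339 of all genes were higher and 499 lower rather than 2040 and 1973. Leaving out 1 tumor at a time gave 0 to 2 members higher, 1 to 2 lower, and 9 to 21 related genes higher and 16 to 25 lower. Related genes called higher numbered 9 without vehicle tumor 1 or BI tumor 7, against 15 with all tumors, and without vehicle tumor 3 all genes numbered 1332 higher and 1172 lower. For the members, the 0 arose without vehicle tumor 1 (Zeb2) and the 2 without BI tumor 6 (Zeb1), and the 1 without vehicle tumor 2 or 3 (Twist1). The sign turned for Cdh2 without vehicle tumor 3 (0.45) or BI tumor 8 (0.03), for Cdh1 without BI tumor 4 (-0.058) and for Twist2 without BI tumor 9 (-0.042), none of them called; the cause was not tested. Their log2 fold changes ranged from -0.36 to 0.45, from -0.058 to 0.28 and from -0.042 to 0.35. The counts were lowest for Cdh2 (12 to 72) and Snai2 (20 to 87), which limits the precision of each tumor's value; the part of counting error in their spread was not tested.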

Other observations

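Of the other cell type markers, those of mast cells moved furthest: all 6 tested were called higher by edgeR, with sums of 23.9 to 41.8 CPM in the vehicle tumors and 46.1 to 356 CPM in the BI tumors, and Tpsb2, a mast cell tryptase, was the most abundant. Of 7 dendritic cell markers 5 were higher (72.2 to 88.2 against 113 to 175 CPM, Ccr7 the most abundant), and of 4 B cell markers 2 were higher (4.52 to 8.02 against 5.80 to 11.2 CPM, Cd79b). Markers of pericytes and smooth muscle (7 tested, 134 to 163 against 145 to 210 CPM, Mcam), adipocytes (6 tested, 39.9 to 70.2 against 61.8 to 344 CPM, Fabp4), skeletal muscle (6 tested, 8.80 to 24.2 against 6.62 to 20.5 CPM, Tnnt3) and Schwann cells (3 tested) held 0 genes called by edgeR. At an unadjusted p under 0.05 these lists held 1, 2, 0 and 1 genes. Per length the most abundant marker was Krt18 of the carcinoma cell list, C1qa of the macrophage list, S100a9 of the neutrophil list, Pecam1 of the endothelial list, Cd3g of the T cell list and Nkg7 of the NK cell list.

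The genes whose log2 CPM followed each member most closely over the 9 tumors, after the group means were subtracted, are given as a description. The tumors share their libraries, and with 12185 genes compared over 9 tumors high coefficients arise without any relation. For Snai2 they were Wnt5a, Tgfb1i1 and Col6a3 (Pearson's r 0.979 to 0.981), and for Cdh11 Exosc3, Tmem119 and Creb3l1 (0.967 to 0.985). For Twist2 they were Oas2, E2f2 and Cd244a (0.968 to 0.981), and for Twist1 Rps27l, Ndufb4 and Rpl36al (0.964 to 0.989). Snai1 was followed by Ewsr1, Cavin1 and Mospd3 (0.961 to 0.974), Zeb1 by Rin3, Hoxc6 and Ebf1 (0.934 to 0.942), and Zeb2 by Ric8b, E330033B04Rik and Zfp110 (0.947 to 0.973). For Cdh1 the genes were Ahnak, Malt1 and Slc4a8 (0.955 to 0.962), for Cdh2 Arpc1a, Morc3 and Cbwd1 (0.927 to 0.966), and for Vim Ggct, Ccdc115 and Capg (0.957 to 0.991).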
